A study of Mus musculus with 18 samples.

Results

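The unfolded protein response genes examined here are 32 genes that fold or clear proteins of the endoplasmic reticulum (ER) or signal stress there, out of 18194 genes with a named probe set. They were taken by symbol, each through its probe set with the highest mean signal, and all 32 were at or above the filter value of 4.86 log2 units on each of the 17 arrays with values. They comprise 7 sensors and transcription factors, 2 feedback and stress effectors, 11 chaperones and co-chaperones, 4 disulfide isomerases, 6 factors of ER-associated degradation and 2 genes of the translocon.

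RNA of primary Eµ-myc;Suv39h1-null lymphoma cells was hybridised to Affymetrix mouse arrays. The cells came from lymph nodes of mice on a C57/Bl6 background whose transgene drives the Myc oncogene in the B lineage. Cells of every group, untreated ones included, lacked Suv39h1, a histone H3 methyltransferase, and carried 2 retroviral genes, the anti-apoptotic Bcl2 and Suv39h1-ERT2, a Suv39h1 fusion activated by 4-hydroxytamoxifen (4-OHT). The 3 lymphomas, 4146, 4936 and 5043, are the replicates, and each was cultured under all conditions. Adriamycin (ADR) damages DNA. The big outgrowth (n = 3) and the small outgrowth (n = 3) were sorted by morphology from cultures kept for 14 days without drug after 5 days of ADR and 4-OHT. The ADR outgrowth (n = 2) had 14 drug-free days after 5 days of ADR alone, and its array of lymphoma 5043 held no values. The remaining groups were 5 days of ADR with 4-OHT (n = 3), 5 days of ADR alone (n = 3) and untreated cells (n = 3). No group received 4-OHT without ADR, and retroviral transduction leaves the number of clones in a culture unstated.

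Secretory proteins fold in the lumen of the ER with the help of chaperones and of isomerases that form disulfide bonds. When unfolded proteins build up, 3 membrane sensors respond: IRE1 (Ern1) splices the mRNA of Xbp1, ATF6 is cut to release a transcription factor, and PERK (Eif2ak3) slows translation and favours the translation of ATF4. XBP1 and ATF6 raise chaperone and degradation genes, and ATF4 raises Ddit3 (CHOP), Atf3 and Ppp1r15a (GADD34). In the B lineage the XBP1 arm is known for enlarging the ER in plasma cells. Splicing of Xbp1, cleavage of ATF6 and translation of Atf4 are not read by these arrays.

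Differences are log2 differences from limma with a block for lymphoma, as the first group named minus the second. Every probe set was deposited with an equal median in each lymphoma, so offsets between lymphomas had been removed. Statements on overlap compare arrays across lymphomas after that step, and do not show how far the lymphomas agreed before it. A gene passed where its p, adjusted by Benjamini-Hochberg over all 11897 tested genes, was under 0.05. With 3 arrays against 3 the median standard error (SE) of a difference was 0.22 over all tested genes and 0.21 over the 32 genes. None of the 32 genes passed in any of the 8 comparisons between groups or in the test of whether small minus ADR outgrowth differed from ADR+4-OHT minus ADR at 5 days. In the test of any difference among the 6 groups, 3 of 32 passed, Pdia6, Pdia3 and Calr, against 2.63% of all tested genes. These 3 calls hung on single arrays. Leaving out 1 of the big or small outgrowths left none, as did leaving out ADR+4-OHT 5 d of 4936 or 5043, ADR 5 d of 4146 or 5043 or the untreated array of 4146 or 5043, which makes 12 of the 17 arrays. Without ADR 5 d of 4936 Pdia6 still passed, and without the untreated array of 4936 Pdia6 and Pdia3 did, while all 3 passed without ADR+4-OHT 5 d of 4146 or without 1 of the ADR outgrowth arrays.

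Arrays stood apart in 3 cases, which touch several results. On the leading principal component, with 33.6% of the variance, the big outgrowth of 5043, the small outgrowth of 5043 and ADR 5 d of 4936 scored 66.3, 58.5 and 66.8, and the other 14 arrays lay between -26 and 5.9. The identity of the ADR+4-OHT 5 d array of 4146 was also in doubt from earlier results of these data. Of 11 B-cell markers, 9 to 11 were at or above the filter value on every array, so the labelled lineage was seen throughout. Of 11 fibroblast markers, 6 to 8 were at or above it in big outgrowths, 5 in small outgrowths, 2 to 4 in ADR outgrowths, 3 to 5 with ADR+4-OHT, 5 to 7 with ADR and 2 to 5 in untreated cells.

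Several of the chaperone genes carry a common promoter sequence. The ER stress response element (ERSE), bound by ATF6 and NF-Y, reads CCAAT, 9 bases of any kind, then CCACG. Both strands were searched in RefSeq windows from 250 bases before to 50 bases after the start site on GRCm38.p6, which exist for 28 of the 32 genes. An ERSE occurred in 8 of these 28 (28.6%), against 37 of 27025 genes with a window (0.137%). The 32 genes were chosen as unfolded protein response genes, so this share is a description and not a test. The 8 were Hspa5, Hsp90b1, Dnajc3, Creld2, Calr, Canx, Pdia6 and Syvn1, and the stretches of the best known chaperone targets and of the isomerase that varied most clearly are given here from 5′ to 3′ along the gene, with each ERSE in capitals. A match reading CGTGG first lies on the opposite strand.
Hspa5: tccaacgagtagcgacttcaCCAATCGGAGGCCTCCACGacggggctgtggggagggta
Hsp90b1: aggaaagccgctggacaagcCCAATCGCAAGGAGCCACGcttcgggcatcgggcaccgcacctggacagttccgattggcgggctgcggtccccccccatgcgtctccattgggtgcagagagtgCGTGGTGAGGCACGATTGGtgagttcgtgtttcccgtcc
Calr: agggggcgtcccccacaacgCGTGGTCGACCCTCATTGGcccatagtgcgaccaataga
Pdia6: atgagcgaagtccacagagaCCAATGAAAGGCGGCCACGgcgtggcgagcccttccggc

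The stretch of Hspa5 lies at chr2:34772005-34772063 on the plus strand and that of Pdia6 at chr12:17266471-17266529 on the plus strand. Those of Hsp90b1, at chr10:86705513-86705676, and Calr, at chr8:84847055-84847113, are on the minus strand. Counted with the start site as 0, the matches ran from -65 to -47 in Hspa5, from -98 to -80 in Pdia6 and from -162 to -144 in Calr, and Hsp90b1 had 2, from -212 to -194 and from -107 to -89. All lie upstream of the annotated start, outside any exon of the gene itself. The second element, ERSE-II, which reads ATTGG, 1 base of any kind, then CCACG, occurred in Dnajb11 and Herpud1 (7.1%, against 0.0444% of all genes). The XBP1-type core, TGACG followed by TGG, occurred in none of the 28 (0.714% of all genes), which says only that these letters are absent from the windows. The ATF4-type core, TGATG, 1 base of any kind, then AA, occurred in Atf3 and Herpud1 (7.1%, against 4.51% of all genes). No matches of different motifs overlapped.

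Pdia6, a luminal protein disulfide isomerase that also binds the sensor IRE1 (chr12:17266589-17284785), gave the clearest profile. Its log2 signal was 11.41, 11.23 and 11.26 in big outgrowths of 4146, 4936 and 5043, against 12.07, 12.00 and 12.19 in small outgrowths. It was 11.27 and 11.33 in the ADR outgrowths of 4146 and 4936. At 5 days it was 10.75, 11.09 and 11.20 with ADR+4-OHT, against 12.00, 11.56 and 12.02 with ADR and 11.23, 11.35 and 11.34 in untreated cells. Small outgrowths and ADR 5 d cultures formed the high end, ADR+4-OHT 5 d cultures the low end, and small outgrowths overlapped with neither big nor ADR outgrowths nor untreated cells. ADR+4-OHT and ADR did not overlap either. The test of any difference among groups gave an adjusted p of 0.037 in limma.

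The single comparisons of Pdia6 missed the threshold. The difference was -0.79 between big and small outgrowths (SE 0.15, 95% interval -1.12 to -0.46, adjusted p = 0.0904 in limma), or 1.73-fold lower in big ones. It was -0.85 between ADR+4-OHT and ADR (SE 0.15, adjusted p = 0.13 in limma), or 1.80-fold lower with 4-OHT. Small minus ADR outgrowth gave 0.75 (SE 0.17, adjusted p = 0.243 in limma). The other probe set of Pdia6, at or above the filter value on 6 of 17 arrays, gave 0.96 for big minus small, so the mean over both was 0.09. Small minus ADR outgrowth and ADR+4-OHT minus ADR thus had opposite signs, and the first exceeded the second by 1.59 (SE 0.23, adjusted p = 0.208 in limma). The big outgrowths, which had 4-OHT as well, averaged 11.30 and the ADR outgrowths 11.30, so the high level after 4-OHT was that of the fraction sorted as small. Leaving out the 3 arrays that stood apart gave -0.72 for big minus small and -0.99 for ADR+4-OHT minus ADR, and the test among groups gave an adjusted p of 0.0819 in limma.

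**Figure D1:**
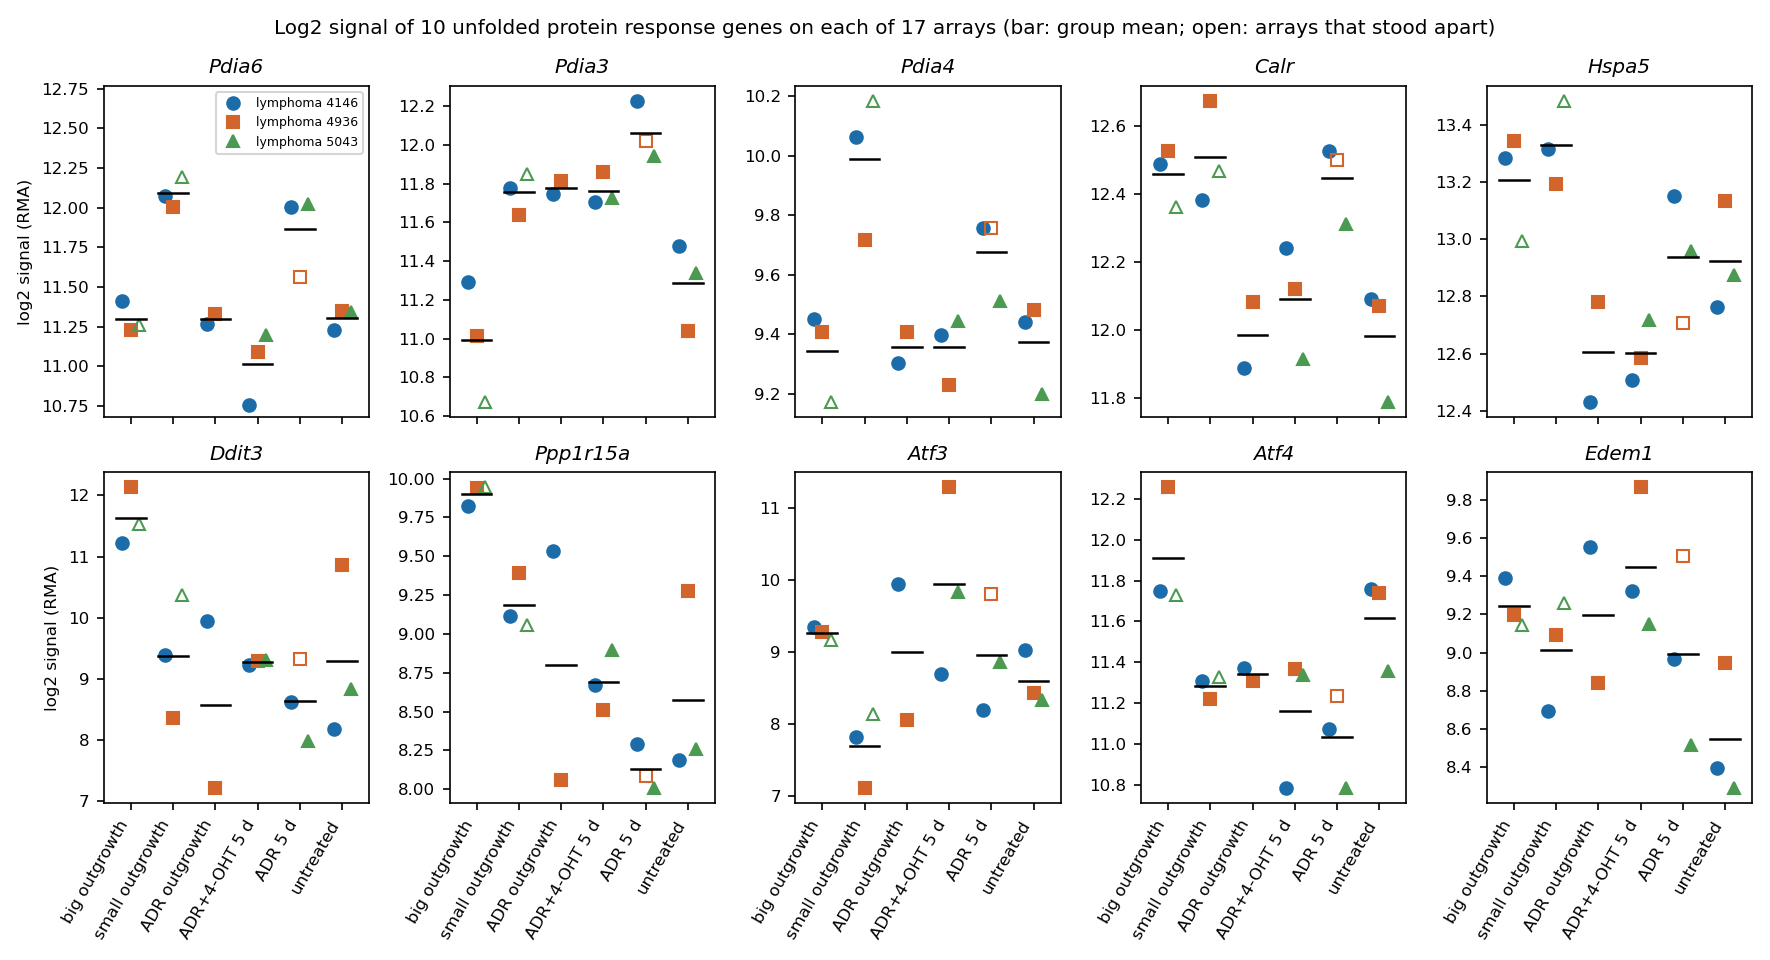
Log2 signal (vertical axes) of 10 genes on each of 17 arrays, by group (horizontal axes), with shape and colour for the lymphoma, a bar for the group mean and open symbols for the 3 arrays that stood apart. Pdia6 lies between 12.00 and 12.19 in small outgrowths and between 11.23 and 11.41 in big ones, and Ddit3 lies highest in big outgrowths.

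Pdia3, the isomerase that works with calreticulin and calnexin on glycoproteins (chr2:121413902-121438687), changed among the groups (adjusted p = 0.0393 in limma). Its log2 signal was 11.29, 11.02 and 10.67 in big outgrowths, against 11.78, 11.64 and 11.85 in small outgrowths, and 11.74 and 11.81 in ADR outgrowths. At 5 days it was 11.71, 11.86 and 11.73 with ADR+4-OHT, against 12.23, 12.02 and 11.94 with ADR and 11.48, 11.04 and 11.34 in untreated cells. All ADR 5 d arrays lay above all others, and big outgrowths overlapped only with untreated cells. Big minus small was -0.76 (SE 0.16, adjusted p = 0.101 in limma), and ADR minus untreated was 0.78 (SE 0.16, adjusted p = 0.239 in limma). ADR+4-OHT minus untreated was 0.48 (SE 0.16, adjusted p = 0.128 in limma). Pdia3 no longer passed the test among groups without the 3 arrays (adjusted p = 0.139 in limma).

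Pdia4, a further luminal isomerase (chr6:47796141-47813512), had 9.45, 9.41 and 9.17 in big outgrowths, against 10.06, 9.72 and 10.18 in small ones and 9.30 and 9.41 in ADR outgrowths. The small outgrowths did not overlap with either. It had 9.40, 9.23 and 9.45 with ADR+4-OHT, against 9.76, 9.76 and 9.51 with ADR and 9.44, 9.48 and 9.20 in untreated cells, again without overlap between ADR and either of the other groups. Big minus small was -0.64 (SE 0.15, adjusted p = 0.159 in limma), and small minus ADR outgrowth was 0.65 (SE 0.18, adjusted p = 0.243 in limma). P4hb, the classical isomerase of the family, had group differences from 0.03 to 0.35, with SEs of 0.29 to 0.34. Over the 4 isomerases the median difference of big minus small was -0.70, and -0.51 without the 3 arrays, against -0.02 over all tested genes.

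Among the chaperones, Calr, the lectin calreticulin (chr8:84842088-84846931), changed among the groups (adjusted p = 0.0478 in limma). Its log2 signal was 12.49, 12.53 and 12.36 in big outgrowths, 12.38, 12.67 and 12.47 in small outgrowths, and 11.89 and 12.08 in ADR outgrowths. It was 12.24, 12.12 and 11.91 with ADR+4-OHT, against 12.53, 12.50 and 12.31 with ADR and 12.09, 12.07 and 11.79 in untreated cells. Big and small outgrowths overlapped for Calr, with a difference of -0.05 (SE 0.12, adjusted p = 0.957 in limma, 95% interval -0.31 to 0.21). Both outgrowths lay above ADR outgrowths and untreated cells on every array, and ADR did not overlap with ADR+4-OHT. Small minus ADR outgrowth was 0.59 (SE 0.13, adjusted p = 0.243 in limma), and big minus untreated was 0.47 (SE 0.12, adjusted p = 0.106 in limma). Its 2 further probe sets gave 0.59 and 0.58 for small minus ADR outgrowth. Calr had an adjusted p of 0.17 in limma in the test among groups without the 3 arrays.

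Hspa5, which encodes BiP, the main luminal chaperone and the protein that holds the sensors inactive (chr2:34772090-34776529), had 13.29, 13.34 and 12.99 in big outgrowths, 13.32, 13.20 and 13.48 in small outgrowths and 12.43 and 12.78 in ADR outgrowths. At 5 days it had 12.51, 12.59 and 12.72 with ADR+4-OHT, against 13.15, 12.71 and 12.96 with ADR and 12.76, 13.13 and 12.88 in untreated cells. Both kinds of outgrowth after ADR+4-OHT lay above the ADR outgrowths, without overlap. Small minus ADR outgrowth was 0.72 (SE 0.20, adjusted p = 0.25 in limma), and ADR+4-OHT minus ADR was -0.34 (SE 0.17, adjusted p = 0.445 in limma). Hspa5, like Ddit3, Ppp1r15a, Atf3, Atf4 and Xbp1, was singled out after its values were seen.

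Dnajb11, a co-chaperone of BiP (chr16:22857845-22879634), had 9.72, 9.89 and 9.71 with ADR+4-OHT, against 10.23, 10.38 and 9.98 with ADR and 9.63, 9.21 and 9.60 in untreated cells. None of the 3 groups overlapped, ADR being the highest. ADR minus untreated was 0.72 (SE 0.18, adjusted p = 0.291 in limma). In the outgrowths Dnajb11 had 9.14, 9.35 and 8.98 in big, 9.62, 9.34 and 9.62 in small and 9.53 and 10.02 in ADR outgrowths. Sdf2l1, which works with Dnajb11 on BiP clients (chr16:17130138-17132383), had 9.80, 10.11 and 10.19 with ADR+4-OHT, against 10.58, 10.46 and 10.70 with ADR and 10.21, 9.71 and 10.12 in untreated cells. ADR lay above both without overlap, and ADR+4-OHT minus ADR was -0.55 (SE 0.17, adjusted p = 0.246 in limma). In outgrowths Sdf2l1 had 10.10, 10.08 and 10.23 in big, 10.87, 10.35 and 10.49 in small and 10.25 and 10.43 in ADR outgrowths.

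None of the remaining chaperones passed. For ADR minus untreated, Creld2, a folding factor released under ER stress, had 0.83 (SE 0.37, adjusted p = 0.437 in limma), and Hyou1, a nucleotide exchange factor of BiP, had 0.30 (SE 0.14, adjusted p = 0.437 in limma). Manf, a secreted ER stress protein, had 0.34 for ADR minus untreated and 0.66 for small outgrowth minus untreated (SE 0.16 each). Hsp90b1, which encodes GRP94, and Canx, the membrane lectin calnexin, had 0.44 and 0.50 for small outgrowth minus untreated (SE 0.15 and 0.13). The mean of Hsp90b1 was 12.80 in big outgrowths, 12.75 in small ones and 12.31 in untreated cells. Dnajc3, the inhibitor p58IPK of PERK, ran from -0.45 to 0.32 over the comparisons (SEs 0.29 to 0.33). Dnajb9, which encodes ERdj4 and binds IRE1 (chr12:44205897-44210068), had 9.79, 8.94 and 9.34 with ADR+4-OHT, against 8.89, 9.18 and 9.03 with ADR and 8.14, 8.99 and 8.54 in untreated cells. It had 9.43, 9.11 and 9.39 in big outgrowths, 9.22, 9.26 and 9.14 in small outgrowths and 9.07 and 9.25 in ADR outgrowths. The untreated array of 4936 overlapped with the ADR+4-OHT arrays, and ADR+4-OHT minus untreated was 0.80 (SE 0.24, adjusted p = 0.0955 in limma), with -0.05 within lymphoma 4936. The highest value of Dnajb9, 9.79, was that of the doubted 4146 array, and the difference ran from 0.37 to 1.22 over all settings run.

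**Figure D2:**
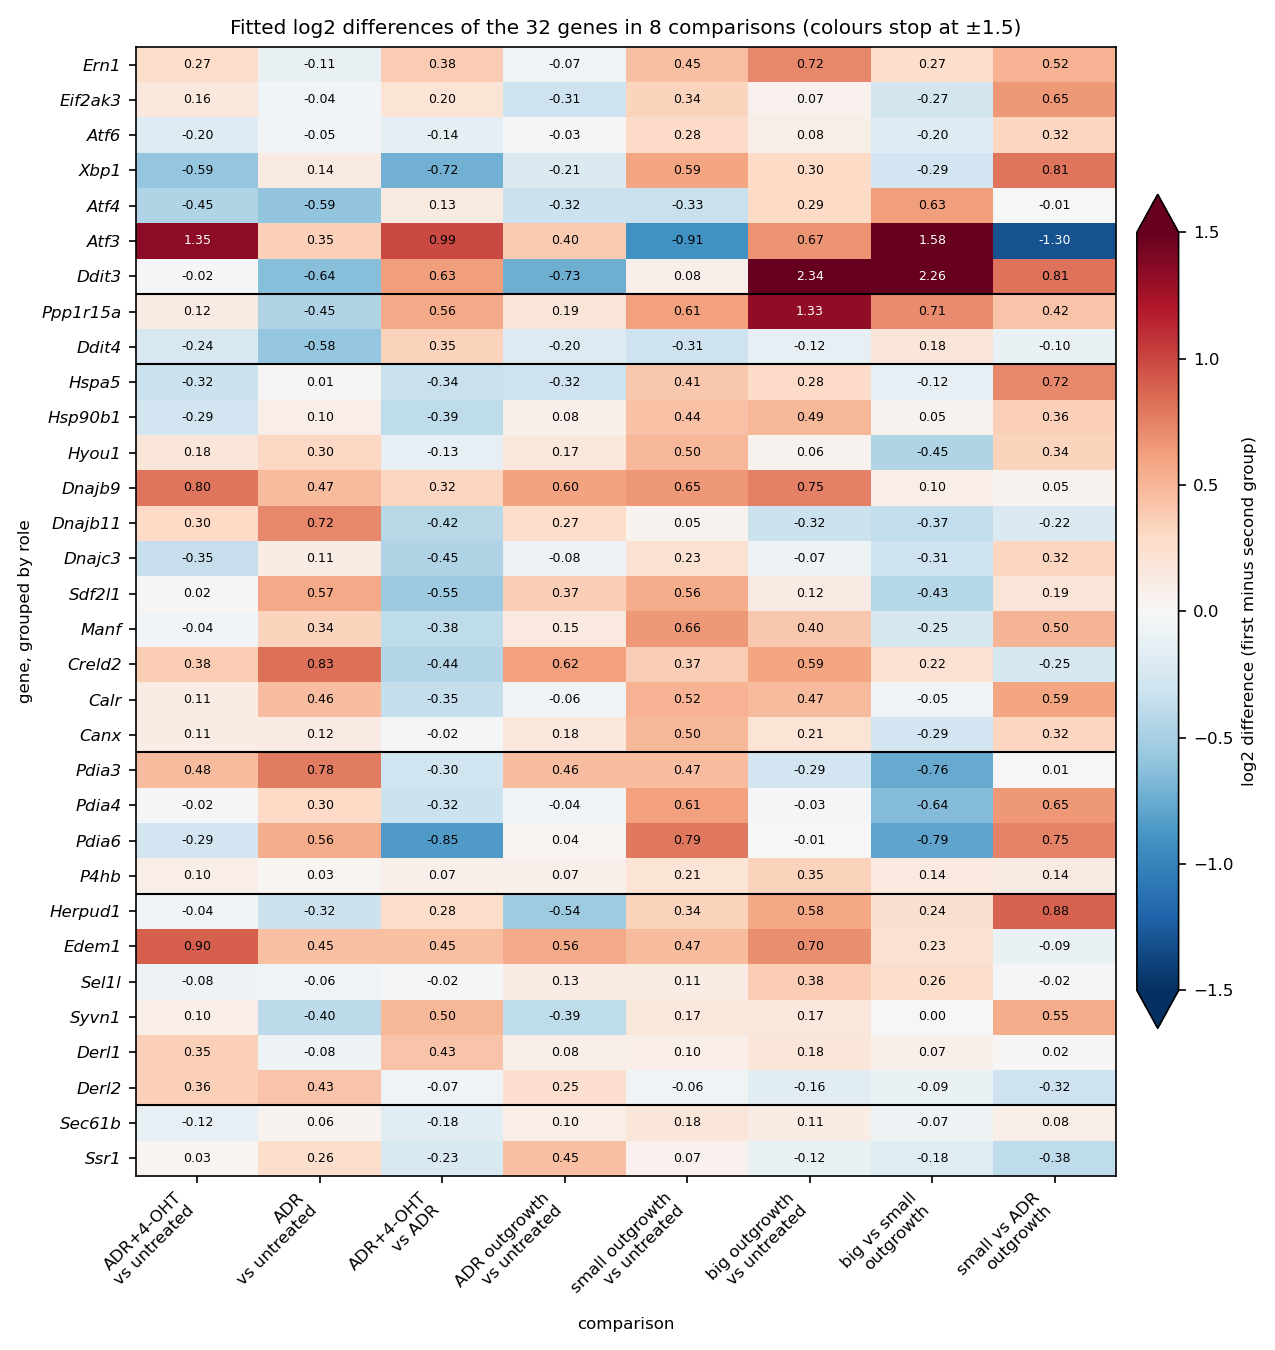
Fitted log2 differences (colour and printed values, first minus second group) of the 32 genes, one row a gene grouped by role, in 8 comparisons, one column each. Chaperones and isomerases are mostly above 0 for ADR against untreated and small outgrowth against untreated and below 0 for ADR+4-OHT against ADR, and Ddit3 has the largest values for the big outgrowth.

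The signs of the luminal genes were often shared across lymphomas. With ADR alone against untreated, 13 of 32 genes (40.6%) were higher in all 3 lymphomas, against 21.8% of all tested genes, and 2 were lower, Atf4 and Ddit4 (6.25%, against 19.5%). The 13 were Hyou1, Dnajb9, Dnajb11, Sdf2l1, Creld2, Calr, Canx, Pdia3, Pdia4, Pdia6, Edem1, Derl2 and Ssr1. In the 2 lymphomas whose arrays did not stand apart, 18 were higher (56.2%, against 30.9% of all tested genes). All 11 chaperones had a fitted difference above 0, against 52.3% of all tested genes. The median was 0.34 over the chaperones and 0.43 over the 4 isomerases, against 0.02 over all tested genes. None passed in this comparison, where 0% of all genes passed, and 9 of the 32 and 11.3% of all genes had an unadjusted p under 0.05.

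With 4-OHT added, chaperones and isomerases mostly lay below their level with ADR alone. In ADR+4-OHT against ADR, 11 of 32 genes (34.4%) were lower in all 3 lymphomas, against 22% of all tested genes: Xbp1, Hspa5, Hsp90b1, Dnajb11, Sdf2l1, Manf, Creld2, Calr, Pdia3, Pdia4 and Pdia6. Higher in all 3 were 5 genes (15.6%, against 16.9%): Atf3, Ppp1r15a, Edem1, Syvn1 and Derl1. In the 2 lymphomas without an array that stood apart, 4146 and 5043, 13 were lower (40.6%, against 32.5%). Of these lymphomas, 4146 enters with its doubted ADR+4-OHT array. The median difference was -0.38 over chaperones, -0.31 over isomerases and 0.35 over the 6 degradation genes, against -0.02 over all tested genes. No gene of the 32 passed and 0% of all genes did, while 7 of 32 and 12.5% of all genes had an unadjusted p under 0.05. This comparison shares the ADR arrays with that of ADR against untreated cells, so opposite signs in the 2 are not independent. The median over the 32 genes was -0.10, and it was 0.03 without the 3 arrays that stood apart and the doubted one. Without these arrays chaperones had a median of -0.30, isomerases -0.22 and degradation genes 0.34.

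Some other measures moved with these groups. Fibroblast markers were higher with ADR than in untreated cells for 11 of 11, with a median of 0.73, and lower with ADR+4-OHT than with ADR for 10 of 11, with a median of -0.48. None of them passed in either comparison. Without the 3 arrays that stood apart these medians were 0.30 and -0.24, and within lymphomas the first was 0.22 for 4146, 2.12 for 4936 and 0.59 for 5043. Their mean log2 signal ran from 4.48 to 5.12 with ADR+4-OHT, from 5.35 to 6.54 with ADR and from 4.23 to 4.63 in untreated cells. Macrophage markers were higher with ADR than in untreated cells for 11 of 13, with a median of 0.49, which was 0.42 without the 3 arrays, and none of the 8 tested passed. With ADR+4-OHT against ADR their median was 0.02. Their mean log2 signal ran from 5.21 to 5.58 with ADR+4-OHT, from 5.00 to 6.65 with ADR and from 4.38 to 4.65 in untreated cells. RNA quality was read from control probe sets of Actb, Gapdh and Tfrc as 3′ minus 5′ signal. For Actb it ran from 1.17 to 1.51 with ADR+4-OHT, from 0.56 to 1.17 with ADR and from 1.39 to 1.65 in untreated cells. For Gapdh the ranges were 0.415 to 0.568, 0.366 to 0.496 and 0.479 to 0.54 in the same order. For Tfrc they were 1.313 to 2.725, 1.601 to 1.979 and 1.558 to 2.193. ADR thus overlapped with both other groups for Gapdh and Tfrc. The part of the markers and of RNA quality in the chaperone and isomerase levels was not tested. In bulk RNA, fewer cells of a type and less RNA per cell cannot be told apart.

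Against untreated cells directly, ADR+4-OHT 5 d cultures had fitted differences above 0 for 18 of the 32 genes, against 50.3% of all tested genes. Of all tested genes 2.94% passed in this comparison and none of the 32 did. These 350 genes became 14 to 24 without the untreated array of 4936 or 5043 or the ADR+4-OHT array of 4936 or 5043, 129 without the untreated array of 4146 and 0 without lymphoma 4146 or 5043. The median difference was 0.07 over the 32 genes and 0.00 over all tested genes, and 5 of 32 (19.2% of all genes) had an unadjusted p under 0.05. Edem1, the mannosidase-like factor that pulls glycoproteins out of the folding cycle (chr6:108824045-108859356), had 9.32, 9.86 and 9.15, against 8.40, 8.95 and 8.29 in untreated cells, without overlap. It had 8.97, 9.50 and 8.52 with ADR, 9.39, 9.20 and 9.14 in big, 8.70, 9.09 and 9.26 in small and 9.55 and 8.84 in ADR outgrowths. ADR+4-OHT minus untreated was 0.90 (SE 0.27, adjusted p = 0.0967 in limma). Its other probe set gave -0.12, so the probe sets of Edem1 disagreed.

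None of the other degradation genes passed. Herpud1, a membrane component of the degradation complex, reached 0.88 for small minus ADR outgrowth (SE 0.51). Syvn1, the ubiquitin ligase HRD1, had 0.50 for ADR+4-OHT minus ADR (SE 0.22, adjusted p = 0.382 in limma), and Derl1, a channel component, had 0.43 (SE 0.20, adjusted p = 0.401 in limma). Derl2, its relative, had 0.43 for ADR minus untreated (SE 0.15, adjusted p = 0.37 in limma), and Sel1l, the partner of HRD1, ran from -0.08 to 0.38. Of the translocon genes, Sec61b, a subunit of the channel, ran from -0.18 to 0.18, and Ssr1, of the associated TRAP complex, ran from -0.38 to 0.45.

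In the outgrowths sorted as small, 28 of the 32 genes had a fitted difference above 0 against untreated cells, the most in any of the 8 comparisons, with a median of 0.35, against 48.7% of all tested genes above 0 and a median of -0.01. In all 3 lymphomas 17 of 32 (53.1%) were higher, against 16.6% of all tested genes, and 3 were lower, Atf4, Atf3 and Derl2 (9.38%, against 18.3%). The 17 were Xbp1, Ppp1r15a, Edem1, Syvn1, Sec61b, 9 chaperones (Hspa5, Hsp90b1, Hyou1, Dnajb9, Dnajc3, Sdf2l1, Manf, Calr and Canx) and the isomerases Pdia3, Pdia4 and Pdia6. In lymphomas 4146 and 4936, whose small outgrowths did not stand apart, 17 were higher as well, against 29.8% of all tested genes. None of the 32 passed, as 0% of all genes did, while 11 of 32 and 8.3% of all genes had an unadjusted p under 0.05. Without the 3 arrays the median over the 32 genes was 0.25. Fibroblast markers had a median of 0.20 in this comparison, with 10 of 11 above 0, and their part was not tested. Among the genes above 0 Pdia6 had the largest difference, 0.79 (SE 0.15, adjusted p = 0.486 in limma), and Atf3, below 0, had -0.91. Big outgrowths also lay mostly above untreated cells, with 24 of the 32 genes above 0, against 45.9% of all tested genes. The median of big minus untreated was 0.25 over the 32 genes and -0.04 over all tested genes. Without the 3 arrays it was 0.23 over the 32 genes.

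The ADR outgrowths came from cultures without 4-OHT. Against untreated cells their median over the 32 genes was 0.08, none passed, 0% of all genes passed, and 1 of 32 (4.49% of all genes) had an unadjusted p under 0.05. Small minus ADR outgrowth, with pairs of arrays in lymphomas 4146 and 4936 and the small outgrowth of 5043 entering through the fit, had a median of 0.32 over the 32 genes, against -0.01 over all tested genes, and again none of the 32 and 0% of all genes passed. The 6 genes with an unadjusted p under 0.05, all higher in small outgrowths, compare with 13.4% of all genes. Medians within lymphomas were 0.05 for 4146 and 0.35 for 4936, so the median of the whole list rested mainly on 4936. In these lymphomas Pdia6 had 0.80 and 0.67, Calr 0.49 and 0.59, and Hspa5 0.88 and 0.41. Fibroblast markers were higher in small than in ADR outgrowths for 11 of 11, with a median of 0.64. B-cell markers were higher for 10 of 11, with a median of 0.54, and the part of either was not tested.

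Small minus ADR outgrowth was set against ADR+4-OHT minus ADR at 5 days, 2 differences that share no array. Only the fraction sorted as small stands for 4-OHT in the outgrowth, so sorting by morphology and 4-OHT cannot be told apart in this comparison. Big outgrowths had 4-OHT too, and their means of 11.30 for Pdia6 and 9.34 for Pdia4 compare with 11.30 and 9.36 in ADR outgrowths, while for Hspa5 and Calr they averaged 13.21 and 12.46, against 12.61 and 11.98. None of the 32 genes and 0% of all tested genes passed in the test of the first difference minus the second, while 10 of 32 and 9.49% of all genes had an unadjusted p under 0.05. All 8 ERSE genes had a value above 0, against 51.6% of all tested genes. The median was 0.76 over the ERSE genes and 0.74 over the chaperones, against 0.02 over all tested genes. Without the 3 arrays and the doubted ADR+4-OHT array of 4146, the median of the chaperones was 0.38. Single values were 1.06 for Hspa5 (SE 0.26, adjusted p = 0.308 in limma), 0.97 for Pdia4 (SE 0.23, adjusted p = 0.296 in limma) and 0.94 for Calr (SE 0.18, adjusted p = 0.255 in limma). Fibroblast markers were above 0 in the same comparison for 11 of 11, with a median of 0.69, and B-cell markers for 9 of 11, with a median of 0.43, and their part was not tested.

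Big and small outgrowths came from the same cultures, and the 32 genes went both ways between them. Higher in all 3 lymphomas were 5 of 32 (15.6%, against 17.8% of all tested genes): Atf4, Atf3, Ddit3, Ppp1r15a and Ddit4. Lower in all 3 were 7 (21.9%, against 23.3%): Eif2ak3, Hyou1, Sdf2l1, Canx, Pdia3, Pdia4 and Pdia6. Both shares were near those of all genes, so the counts show no excess. In lymphomas 4146 and 4936 alone, 9 were higher (28.1%, against 24.2%) and 10 were lower (31.2%, against 34.9%). None of the 32 and 0% of all genes passed, while 8 of 32 and 10.4% of all genes had an unadjusted p under 0.05.

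Ddit3 encodes CHOP, the transcription factor tied to cell death under lasting ER stress (chr10:127290793-127296291). Its log2 signal was 11.22, 12.13 and 11.53 in big outgrowths, against 9.40, 8.36 and 10.36 in small outgrowths, and 9.95 and 7.22 in ADR outgrowths. At 5 days it was 9.23, 9.29 and 9.31 with ADR+4-OHT, against 8.62, 9.33 and 7.99 with ADR and 8.18, 10.86 and 8.84 in untreated cells. Every big outgrowth lay above every other array, while the other groups overlapped. Big minus small was 2.26 (SE 0.80, 95% interval 0.50 to 4.01, adjusted p = 0.346 in limma), or 4.77-fold higher in big ones. Without the 3 arrays it was 2.80. The other probe set of Ddit3, with a lower mean signal, gave 0.64, so the size depended on the probe set.

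Ppp1r15a encodes GADD34, which restores translation by dephosphorylating eIF2α (chr7:45522917-45526268). It had 9.82, 9.94 and 9.94 in big outgrowths, against 9.12, 9.39 and 9.06 in small outgrowths, and 9.54 and 8.06 in ADR outgrowths. It had 8.67, 8.51 and 8.89 with ADR+4-OHT, against 8.29, 8.08 and 8.01 with ADR and 8.19, 9.28 and 8.26 in untreated cells. Big outgrowths lay above every other array. Big minus small was 0.71 (SE 0.35, adjusted p = 0.514 in limma), and big minus untreated was 1.33 (SE 0.35, adjusted p = 0.12 in limma), or 2.51-fold. In big against untreated, 0.412% of all genes passed and none of the 32, with 7 of 32 and 16.3% of all genes at an unadjusted p under 0.05. Leaving out 1 ADR outgrowth array moved the adjusted p of Ppp1r15a for big minus untreated to as low as 0.038 in limma. Leaving out any other single array left none of the 32 passing in big minus untreated.

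Atf4 itself (chr15:80255184-80257545) had 11.75, 12.26 and 11.73 in big outgrowths, against 11.31, 11.22 and 11.33 in small ones and 11.37 and 11.31 in ADR outgrowths. It had 10.78, 11.37 and 11.34 with ADR+4-OHT, against 11.07, 11.23 and 10.79 with ADR and 11.76, 11.74 and 11.35 in untreated cells. Big lay above small and ADR outgrowths without overlap, and ADR lay below untreated cells without overlap. Big minus small was 0.63 (SE 0.19, adjusted p = 0.237 in limma), and a further probe set above the filter value gave 0.61. ADR minus untreated was -0.59 (SE 0.19, adjusted p = 0.335 in limma).

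Atf3, a stress-induced repressor (chr1:191170296-191183333), had 9.35, 9.29 and 9.17 in big outgrowths, against 7.83, 7.11 and 8.14 in small outgrowths and 9.95 and 8.06 in ADR outgrowths. With ADR+4-OHT it had 8.70, 11.30 and 9.84, against 8.20, 9.80 and 8.86 with ADR and 9.03, 8.44 and 8.34 in untreated cells. Small outgrowths had the lowest mean and did not overlap with big ones, and the 4936 array with ADR+4-OHT was the highest of all 17. Big minus small was 1.58 (SE 0.65, adjusted p = 0.413 in limma). Ddit4, an inhibitor of mTORC1 signalling, had 0.18 for the same comparison (SE 0.49).

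None of the sensors passed. Ern1 ran from -0.11 to 0.72 over the 8 comparisons (SEs 0.48 to 0.55), Atf6 from -0.20 to 0.32 (SEs 0.38 to 0.43) and Eif2ak3 from -0.31 to 0.65 (SEs 0.22 to 0.25). Xbp1, the factor made by IRE1 splicing, had 11.38, 10.90 and 11.54 in big, 11.35, 11.25 and 12.09 in small and 10.99 and 10.35 in ADR outgrowths. It had 9.55, 10.83 and 10.78 with ADR+4-OHT, against 10.65, 11.65 and 11.02 with ADR and 11.04, 11.13 and 10.75 in untreated cells. The lowest value was that of the doubted 4146 array: ADR+4-OHT minus ADR was -0.72 (SE 0.37, adjusted p = 0.44 in limma), and 0.08 without that array and the 3 others.

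**Figure D3:**
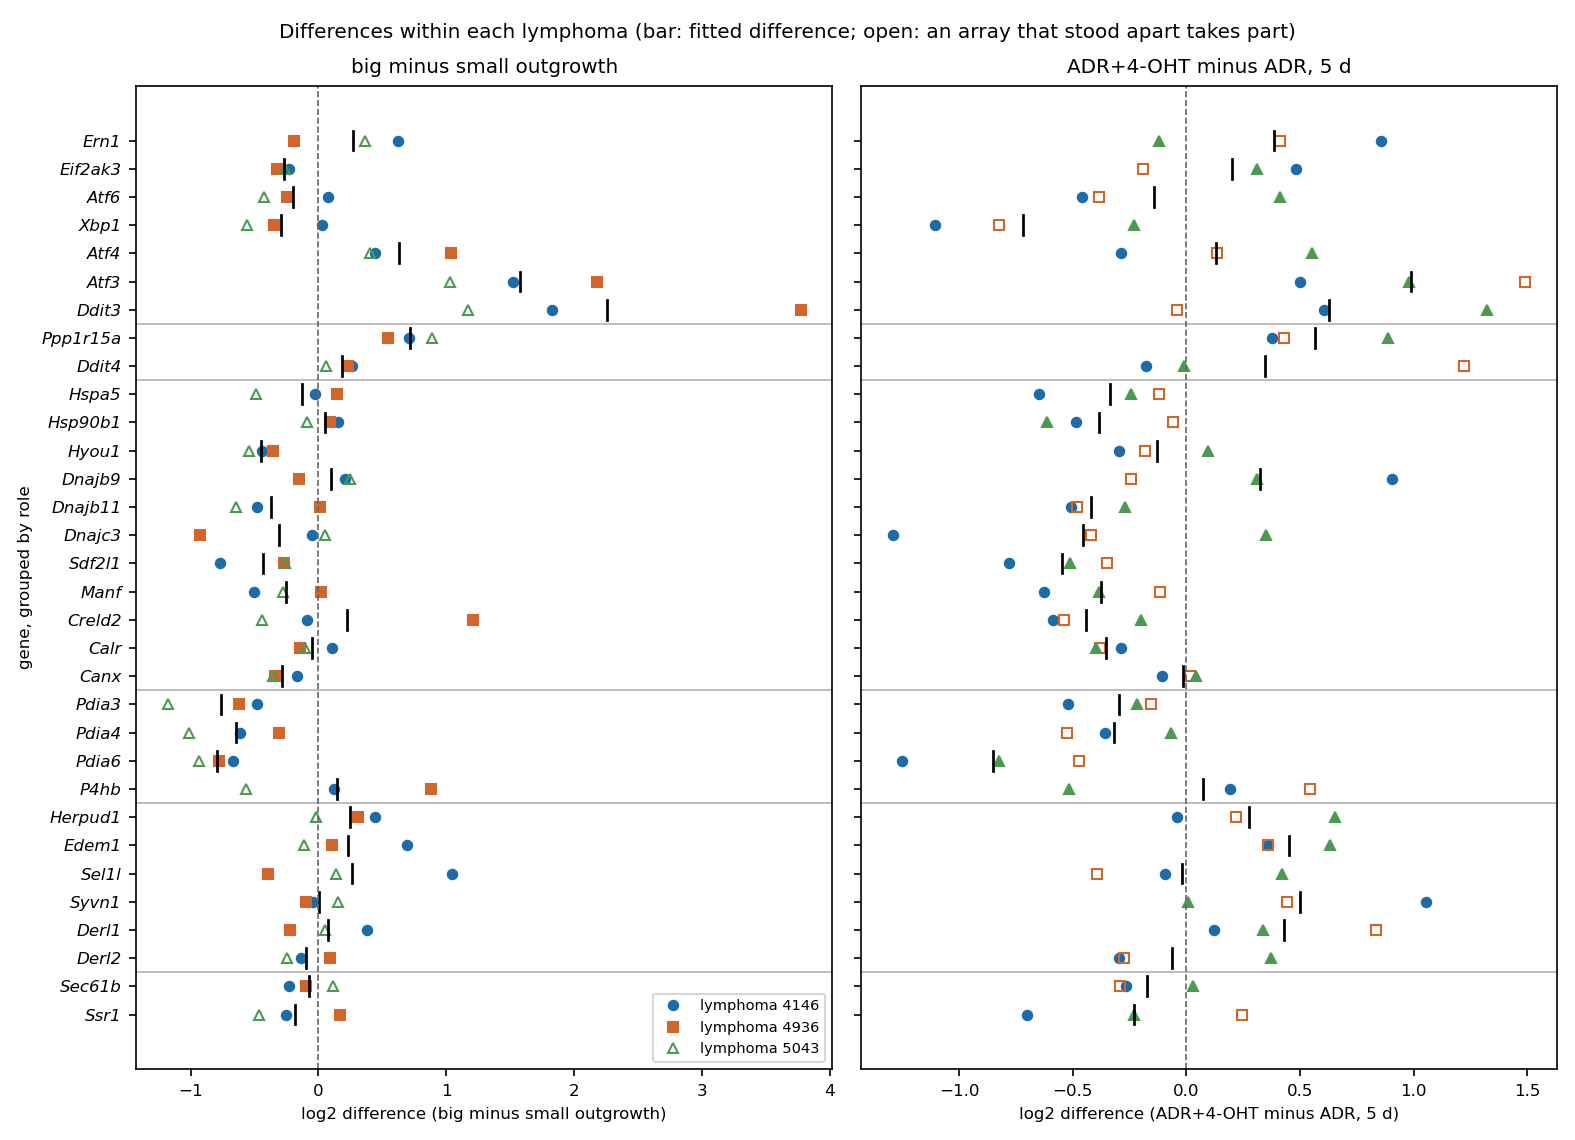
Log2 differences within each lymphoma (symbols, horizontal axes) and fitted differences (bars) of the 32 genes, for big minus small outgrowth on the left and ADR+4-OHT minus ADR on the right. Open symbols involve an array that stood apart. Ddit3, Atf3, Atf4 and Ppp1r15a lie above 0 in every lymphoma on the left, and Pdia3, Pdia4 and Pdia6 lie below 0 in both panels.

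Markers of another cell type moved strongly in the big cells. Against untreated cells, 4 of 6 tested fibroblast markers rose in big outgrowths (limma): Bgn by 5.61 (SE 0.65, adjusted p = 0.0134 in limma), Col1a2 by 4.70, Dcn by 3.73 and Pdgfra by 1.22. Of all 11897 tested genes 34 rose in this comparison. Without the untreated array of 4146 or of 4936 none of the 4 passed (adjusted p of up to 0.193 over all single arrays left out, limma), and their differences stayed above 0, from 0.91 to 6.44. Over 11 markers the median was 1.87 for big minus untreated and 1.27 for big minus small, with a mean log2 signal of 6.14 to 7.24 in big, 4.70 to 5.26 in small and 4.13 to 4.39 in ADR outgrowths and 4.23 to 4.63 in untreated cells. Macrophage markers had a median of 0.27 for big minus small. For Tfrc the 3′ minus 5′ signal was 2.463, 3.358 and 2.86 in big outgrowths of 4146, 4936 and 5043. It was 1.894, 1.903 and 2.908 in small outgrowths, 2.305 and 1.179 in ADR outgrowths and 1.558 to 2.193 in untreated cells. For Actb and Gapdh big outgrowths overlapped with small ones and untreated cells, and lay above ADR outgrowths. The part of the markers and of RNA quality in the levels of Ddit3, Ppp1r15a, Atf4, Atf3 and the isomerases was not tested.

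Neighbouring pathways were read from lists chosen beside the 32 genes. Of 18 tested ATF4 targets of the integrated stress response, 5 fell in ADR+4-OHT against untreated cells and none rose. The list holds enzymes of amino acid and one-carbon metabolism beside transcription factors, transporters and others, and all 5 were such enzymes. Asns, asparagine synthetase, fell by 1.27 (SE 0.28, adjusted p = 0.0364 in limma), Psat1 by 1.22, Shmt2 by 1.13, Mthfd2 by 0.96 and Aldh18a1 by 0.89. Of all 11897 tested genes 244 fell in this comparison. All 5 calls were lost on leaving out any untreated array or the ADR+4-OHT array of 4936 or 5043, with adjusted p of up to 0.174 in limma, while the differences stayed below 0, from -1.53 to -0.72. The median of that list was -0.45 for ADR+4-OHT and -0.52 for ADR, each against untreated cells. For big outgrowth minus untreated it was -0.27, with 7 of 19 genes above 0 and 12 below, and for big minus small it was 0.15. Atf4 itself had -0.45 and -0.59 in the first 2 comparisons. None of 18 tested other ER folding factors passed in any comparison, and their median was 0.30 for small outgrowth minus untreated, 17 of 19 being above 0. For big outgrowth minus untreated their median was 0.24, with 16 of 19 above 0. Cytosolic heat shock genes, of which 12 were tested and none passed, had 0.29 for ADR minus untreated, -0.28 for ADR+4-OHT minus ADR and 0.02 for small outgrowth minus untreated. Plasma cell genes, with 7 tested and none passing, had 0.30 for small outgrowth minus untreated.

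The 8 ERSE genes were set against the 20 genes with a window and no ERSE. For ADR+4-OHT minus ADR the medians were -0.37 and 0.10, with 7 of 8 and 9 of 20 below 0, Syvn1 being the exception among the 8. For small minus ADR outgrowth they were 0.46 and 0.07, with 7 of 8 and 12 of 20 above 0. For ADR minus untreated they were 0.12 and 0.10, and for big minus small -0.09 and 0.12. Without the 3 arrays the medians of genes with and without an ERSE were -0.40 and 0.15 for ADR+4-OHT minus ADR. They were 0.48 and 0.05 for small minus ADR outgrowth, 0.20 and 0.02 for ADR minus untreated, and -0.05 and 0.12 for big minus small. These are descriptions, since the 8 are mostly chaperones and a match is not shown to be a bound site.

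**Figure D4:**
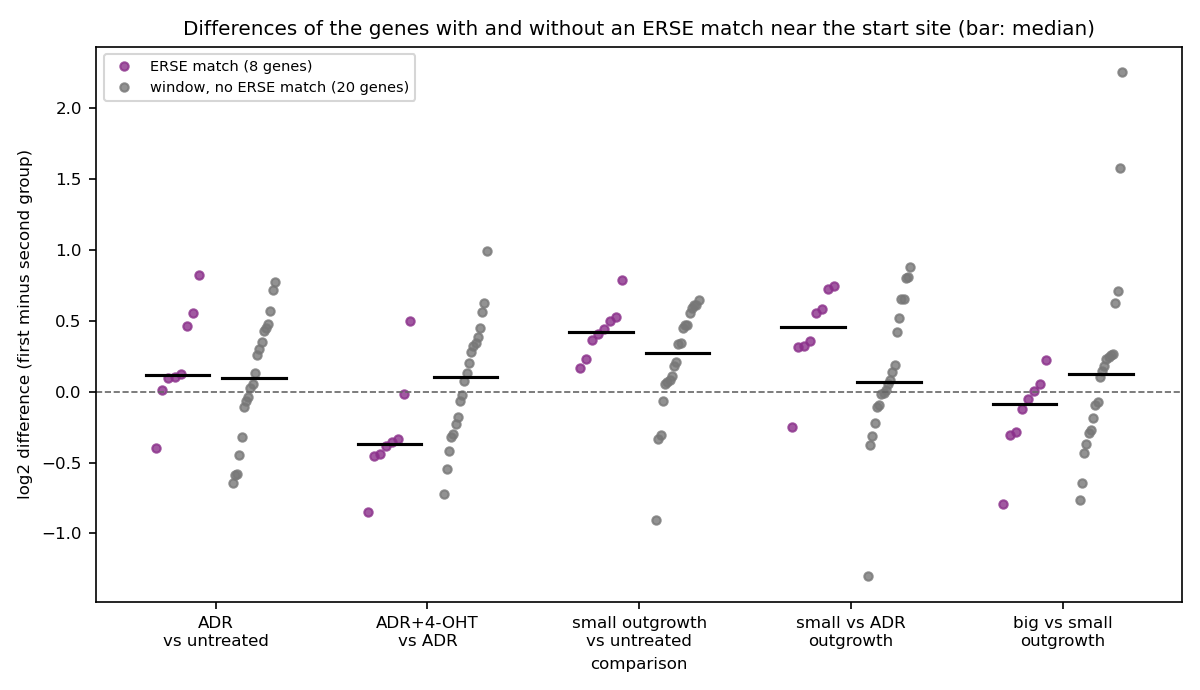
Fitted log2 differences (vertical axis) of the 8 genes with an ERSE match and the 20 genes with a promoter window and none, one point a gene, in 5 comparisons (horizontal axis), with bars for medians. The ERSE genes have a median of -0.37 for ADR+4-OHT against ADR and 0.46 for small against ADR outgrowth.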

How the data were processed

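Log2 signals per probe set were deposited by the authors, made with RMA, with Partek also named, per the submitters' processing notes, without versions or order. Every one of the 45101 probe sets had equal medians in each of the 3 lymphomas (tolerance 1e-05), a step the labels do not state. Of 18 columns, 17 held values, and the other was left out. Probe sets with several symbols (932) or none listed (9211) were not used. The number of arrays limits the precision.

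For each of 18194 genes the probe set with the highest mean was taken, and 11897 genes with at least 4.86, the median of all values, on at least 3 arrays were fitted in limma 3.58.1 (R 4.3.3) with 6 groups and a block for lymphoma (9 residual and 2.53 prior degrees of freedom). The block comes from the treatment protocol, per which each lymphoma received both treatments. It could not be checked on values, since equal medians force arrays of a lymphoma apart. Tests were two-sided, with Benjamini-Hochberg adjustment over all tested genes. The method was tested on simulated data.

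The 32 genes, the lists and the tests were chosen with earlier results of these data known. Values per array were given for genes that passed any test and for the 3 with the smallest p in each of 5 comparisons, and 6 others were picked from their values. Alternatives changed the block, filter, probe set rule, normalisation, variance model and arrays. Protein sequences were not used here. Gene positions and promoters are from RefSeq on GRCm38.p6.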

Additional observations from a re-analysis of the deposited data

How the results depend on the processing

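The test among the 6 groups was the least stable: 3 genes passed, against 1 with the mean over probe sets, 0 without the 3 arrays that stood apart, 0 without those and the ADR+4-OHT array of 4146, 9 with no replicate block (1157 of all 11897 genes) and 18 with array weights (4132 of all genes). Leaving out single arrays or lymphomas gave 0 to 7. With no replicate block 1 gene passed in ADR+4-OHT against ADR (13 of all genes), 1 in big against small outgrowth (30) and 1 in small minus ADR outgrowth against ADR+4-OHT minus ADR (1). Lymphoma numbers pair the arrays by protocol. With array weights 4 passed in ADR+4-OHT against untreated (1583 of all genes), 2 in ADR against untreated (18), 4 in ADR+4-OHT against ADR (1099), 1 in small outgrowth against untreated (25), 6 in big outgrowth against untreated (1421) and 4 in big against small outgrowth (261). Leaving out 1 array or lymphoma gave 0 to 2 for big outgrowth against untreated and 0 elsewhere.

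The median of ADR minus untreated, 0.12, was 0.0298 with median centring, 0.21 with array weights and -0.0092 to 0.25 leaving out 1 array or lymphoma, the lowest without the untreated array of 5043. Median centring gave 0.10 for big outgrowth minus untreated and -0.15 for big minus small. Leave-one-out ranges were 0.0055 to 0.26 for ADR outgrowth minus untreated, -0.15 to -0.0168 for big minus small and 0.11 to 0.49 for small minus ADR outgrowth. They were 0.21 to 0.51 for small outgrowth minus untreated and -0.24 to 0.015 for ADR+4-OHT minus ADR. The causes were not tested. Of the 15 differences that the rule named, 14 kept their sign in every setting run, and Pdia6 in big minus small was 0.0864 with the mean over probe sets. A p that missed the threshold does not show equal levels.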
